A study of Sorghum bicolor with 18 samples.

Results

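CKX1 (Sobic.003G421100) and CKX5 (Sobic.003G313800) are 2 of the 34211 sorghum genes in the deposited table, and 2 of the 11 genes titled cytokinin oxidase there. They were selected on their annotation as CKX1 and CKX5 and on their measured fold changes after leaf removal, which had opposite directions, so those values are described below without a test. The names are those of the matched Arabidopsis genes, and the table gives 3 genes the name CKX5 and 2 the name CKX1. Only the identifiers separate the genes of a shared name, and CKX1 and CKX5 without an identifier mean these genes throughout. Of the 11 genes, 6 passed the filter on low counts, CKX1 and CKX5 among them.

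The RNA came from first axillary buds of the sorghum cultivar 100M (Sorghum bicolor), with treatment starting 7 days after sowing. The 3 intact groups were left undisturbed. In the 3 leaf-removed groups the coleoptile and the first leaf were peeled off the culm, which exposed the bud without touching it. Buds of both treatments were collected at 1, 3 and 6 h, with 3 libraries in each of the 6 groups and 18 in all. Each library is a pool of 15 buds, and of 4 pools harvested per group the 3 with the best Bioanalyzer quality were used, so the spread given here is between pools and not between plants.

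Cytokinins are plant hormones that promote bud outgrowth and cell division. Their level is set by synthesis through isopentenyltransferases, by activation of the nucleotide forms through LOG enzymes, and by irreversible breakdown through cytokinin oxidases (CKX), which are flavin enzymes that cleave the side chain of the hormone. In Arabidopsis the signal passes from histidine kinase receptors through phosphotransfer proteins to B-type response regulators, which switch on A-type response regulators and often CKX genes as well. CKX1 and CKX5 carry the same 5 gene ontology terms in the table, cytokinin dehydrogenase activity and binding of the flavin cofactor among them. The summed exon lengths were 2606 bases for CKX1 and 2504 bases for CKX5, and all of their exon reads were unique, so no reads were shared between these copies.

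The libraries held 21.4 to 45.8 M exon reads (1e6 reads), with a median of 28.7 M. Of the 23 marker genes of shoot meristems and axillary buds in the list used, 19 had reads in every library, 1 (a CUC2-annotated gene) had none, and the WUS-annotated gene had reads in 7 libraries. Of 7 leaf marker genes 6 had reads in every library, as had 14 of 20 markers of vascular tissue. A set of 5 libraries was taken as deviating alike from their group means in many genes. The set was chosen with earlier results of these data known, and no measure of the likeness is given here. Among intact buds the set held replicate c at 1 h and d at 6 h, and after leaf removal d at 1 h, b at 3 h and d at 6 h. The share of intron reads among all gene reads was 4.65% to 7.23% in these 5 libraries and 3.12% to 4.82% in the other 13. In bulk tissue, fewer cells of a type and less RNA per cell cannot be told apart.

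CKX1 was the more abundant of the pair in intact buds and was low at every time in leaf-removed buds. At 1 h it had 1199, 1518 and 1381 exon reads in the intact libraries and 29, 34 and 38 in the leaf-removed libraries. Scaled to a library of 1e6 reads (CPM), these are 38.4, 41.8 and 41.8 against 1.14, 1.64 and 1.40. The lowest intact library stood far above the highest leaf-removed one. The fitted log2 fold change, leaf-removed over intact, was -4.87 ± 0.24 (SE, 3 libraries a group), which left 3.42% of the intact level, and only 16 of the 21852 genes tested had a lower value.

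At 3 h the CKX1 reads were 715, 674 and 1199 in intact and 184, 111 and 108 in leaf-removed libraries. The level in leaf-removed buds was 5.95, 4.13 and 4.08 CPM, against 26.2, 25.3 and 34.8 CPM in intact buds. The groups still did not overlap, although leaf-removed buds now held 16.5% of the intact level, with a log2 fold change of -2.60 ± 0.21. At 6 h the intact libraries had 31.1, 25.9 and 19.3 CPM and the leaf-removed ones 1.94, 1.52 and 1.77 CPM, from 54, 63 and 37 reads. The log2 fold change was -3.87 ± 0.22, or 6.84% of the intact level, so the deficit was smallest at 3 h. Within leaf-removed buds the log2 difference was 1.77 ± 0.22 from 1 to 3 h and -1.44 ± 0.22 from 3 to 6 h.

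CKX5 had the opposite pattern, being nearly silent in intact buds and higher in leaf-removed ones. At 1 h it had 31, 12 and 14 exon reads in intact and 656, 531 and 405 reads in leaf-removed libraries. The corresponding levels were 0.994, 0.330 and 0.424 CPM against 25.8, 25.6 and 14.9 CPM. With 12 reads the exact Poisson interval at 95% is 6.20 to 21.0 reads, which covers counting error only, so the intact level is known less well than that of CKX1. The log2 fold change was 5.25 ± 0.53, and 428 of the 21852 genes tested had a higher value.

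At 3 h CKX5 had 0.550, 1.05 and 0.638 CPM in intact and 7.18, 15.1 and 22.1 CPM in leaf-removed buds, the widest spread within a group in either gene. The log2 fold change was 4.31 ± 0.51. At 6 h the leaf-removed libraries had 5.86, 4.78 and 2.48 CPM against 0.511, 0.878 and 0.409 CPM in intact ones, and the log2 fold change was 2.87 ± 0.51. The groups did not overlap at any of the 3 times, but the gap narrowed from 1 to 6 h. Within leaf-removed buds the log2 difference was -0.58 ± 0.42 from 1 to 3 h, with overlapping libraries. From 3 to 6 h it was -1.75 ± 0.44, without overlap. The share of all genes without overlap between these times was not determined.

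**Figure D1:**
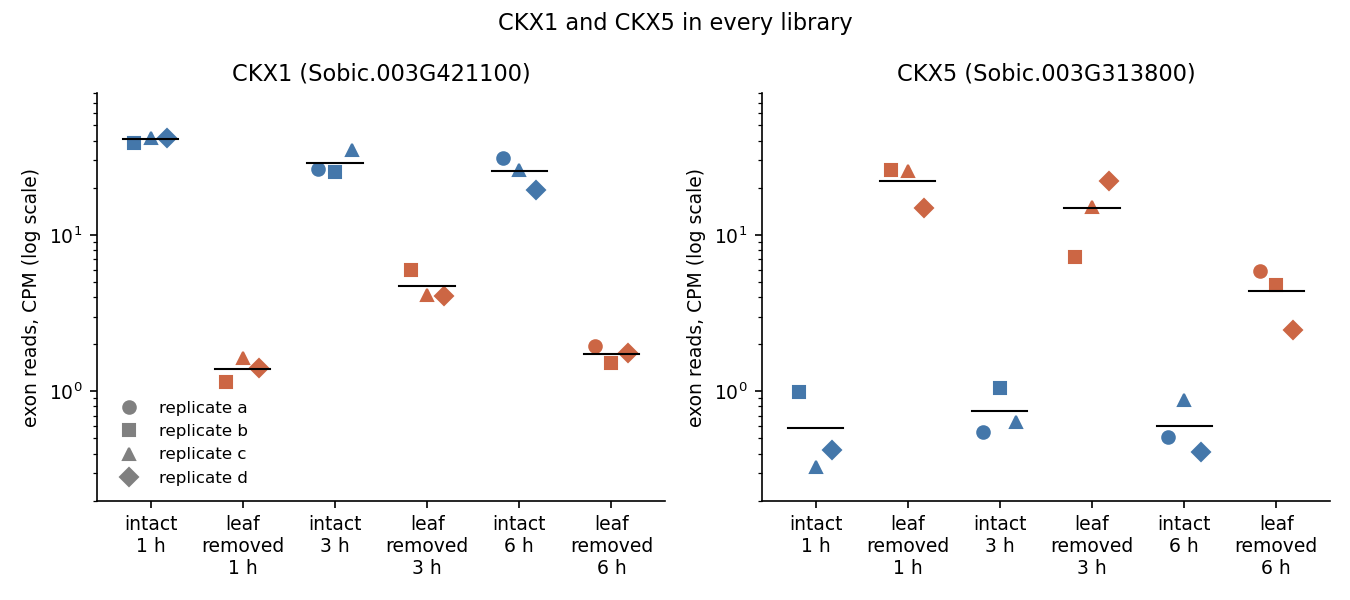
Level of CKX1 (left) and CKX5 (right) in each of the 18 libraries, as exon CPM on a log axis, with intact groups in blue, leaf-removed groups in orange, marker shapes for replicate letters and a line at each group mean. CKX1 lies at 19.3 to 41.8 CPM in intact and 1.14 to 5.95 CPM in leaf-removed buds, and CKX5 at 0.330 to 1.05 CPM and 2.48 to 25.8 CPM.

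These contrasts chose the genes, so the following shares are background only. In the edgeR quasi-likelihood test, with p adjusted by Benjamini-Hochberg and called under 0.05, 48.9% of all tested genes differed at 1 h (24.8% higher and 24.1% lower after leaf removal). At 3 h it was 34.0% (17.8% higher and 16.2% lower), and at 6 h 34.0%, of which the smaller part was lower. Libraries of both treatments did not overlap for 55.0%, 47.4% and 46.1% of the genes at these times. The authors' deposited table gives signed fold changes for CKX1 of -23.7, -5.74 and -12.2 at 1, 3 and 6 h, a minus sign meaning lower after leaf removal. For CKX5 the authors' deposited table gives 23.9, 13.8 and 5.01. The folds fitted here were larger in size at each time for both genes, at 29.2, 6.08 and 14.6 for CKX1 (intact over leaf-removed) and 38.1, 19.8 and 7.32 for CKX5. The steps behind the authors' folds are not given in the sources used here.

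Ordered by group mean, CKX1 went from intact 1 h (40.7 ± 1.95 CPM, SD, n = 3) through intact 3 h (28.8 ± 5.24) and intact 6 h (25.4 ± 5.92) to leaf-removed 3 h (4.72 ± 1.06), 6 h (1.74 ± 0.211) and 1 h (1.39 ± 0.251). Neighbours in this order overlapped for intact 3 and 6 h and for leaf-removed 6 and 1 h, and the remaining neighbours did not. CKX5 went from leaf-removed 1 h (22.1 ± 6.21 CPM) through leaf-removed 3 h (14.8 ± 7.49) and 6 h (4.38 ± 1.73) to intact 3 h (0.746 ± 0.267), 6 h (0.599 ± 0.247) and 1 h (0.583 ± 0.359). Here leaf-removed 1 and 3 h overlapped, as did all intact groups with each other. Between groups of different times, the share of all genes without overlap was not determined.

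The course of both genes in intact buds alone was not used to choose them, although the same libraries are one side of the contrast that was. CKX1 in intact buds did not pass the F test across the 3 times (adjusted p = 0.060, edgeR), a test passed by 9.72% of all genes. Its log2 difference was -0.50 ± 0.19 from 1 to 3 h (edgeR adjusted p = 0.14) and -0.18 ± 0.19 from 3 to 6 h (edgeR adjusted p = 0.91). Of all genes 6.70% passed the first of these contrasts and 0.897% the second. The contrast of 6 h with 1 h, added after the values were seen, passed at -0.68 ± 0.19 (edgeR adjusted p = 0.033), as 10.7% of all genes did. It missed the threshold without the 5 libraries that deviate alike (-0.50, edgeR adjusted p = 0.070) and without intact 1 h replicate c or d or intact 6 h replicate c or d (edgeR adjusted p from 0.059 to 0.11). The F test passed without intact 3 h replicate c (edgeR adjusted p = 0.046), intact 6 h replicate a (edgeR adjusted p = 0.031) or leaf-removed 3 h replicate b (edgeR adjusted p = 0.026).

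No difference between times was detected for CKX5 in intact buds (F test, edgeR adjusted p = 0.88). The log2 difference was 0.36 ± 0.53 from 1 to 3 h and -0.31 ± 0.54 from 3 to 6 h (edgeR adjusted p = 0.76 and 0.96). These contrasts rest on 12 to 31 reads per library. The standard errors of the leaf-removed contrasts of CKX5, with 52 to 656 reads per library, were 0.42 and 0.44.

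Per length, with the authors' RPKM (reads scaled to exon length and library size), CKX1 and CKX5 traded places. CKX1 averaged 14.8 ± 0.757 RPKM (SD, n = 3) in intact buds at 1 h, above 68.7% of the genes tested. CKX5 averaged 0.221 ± 0.135 RPKM there, above 9.76% of the genes. In leaf-removed buds at 1 h CKX5 averaged 7.19 ± 1.81 RPKM, above 54.9% of the genes, and CKX1 0.438 ± 0.0722 RPKM, above 13.3%. At 3 and 6 h after leaf removal CKX5 stood above 46.8% and 29.7% of the genes, and CKX1 above 28.5% and 18.3%. The ratio of CKX5 to CKX1 lay between 0.00823 and 0.0432 in all 9 intact libraries. It was 23.5, 16.3 and 11.1 in the leaf-removed libraries at 1 h, then 1.26, 3.80 and 5.65 at 3 h and 3.14, 3.27 and 1.46 at 6 h. CKX5 was thus the higher of the pair in each of the 9 leaf-removed libraries, by least at 3 h in replicate b and at 6 h in replicate d.

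Summed over the 11 cytokinin oxidase genes, the RPKM was 28.3, 20.2 and 26.9 in intact buds at 1 h and 12.9, 12.3 and 8.48 in leaf-removed buds. At 3 h the sums were 24.2, 32.1 and 33.6 against 14.7, 25.6 and 28.5, and the groups overlapped. At 6 h they were 24.5, 26.9 and 15.3 against 10.4, 10.1 and 5.11. The sum was therefore lower in leaf-removed buds without overlap at 1 and 6 h, while its composition differed at each time. CKX1 made up 29.6% to 75.1% of the sum in intact libraries and 2.77% to 5.43% in leaf-removed ones at 1 h. In leaf-removed libraries its share was 4.88% to 14.0% at 3 h and 4.82% to 11.8% at 6 h. CKX5 made up 0.602% to 1.33% in intact libraries, 60.3% to 65.3% in leaf-removed ones at 1 h, 17.6% to 27.6% at 3 h and 15.8% to 19.5% at 6 h. A CKX6-annotated gene, Sobic.001G215600, was the largest part of each leaf-removed library at 3 h (36.5% to 45.1%) and 6 h (36.8% to 42.1%). The sums contain the chosen genes and carry no test. RPKM is not TMM-scaled. With library totals in place of TMM, the median log2 fold change of all genes was -0.25, -0.12 and -0.21 at 1, 3 and 6 h.

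**Figure D2:**
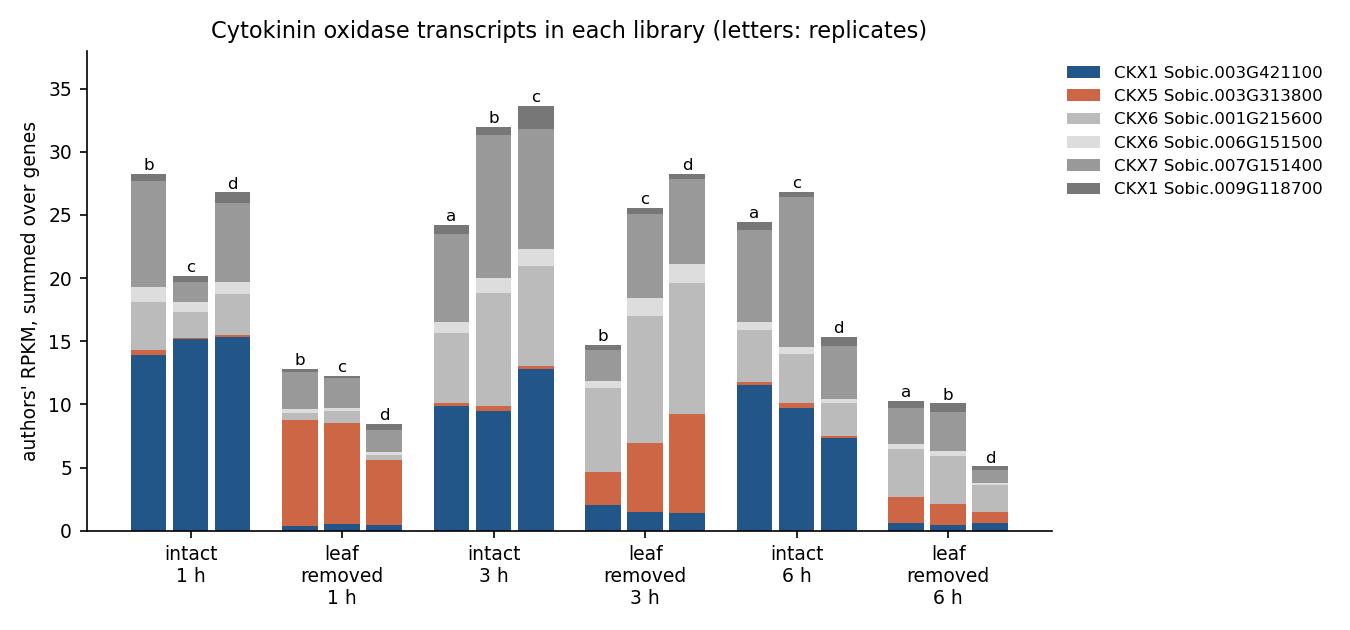
Summed RPKM of the cytokinin oxidase genes in each library, stacked by gene (the 5 untested genes are not drawn), with CKX1 in blue, CKX5 in orange and the other genes in greys, and replicate letters above the bars. The blue part is the base of every intact bar and is 2.77% to 5.43% of the leaf-removed bars at 1 h. It is 4.88% to 14.0% of the leaf-removed bars at 3 h and 4.82% to 11.8% at 6 h. The orange part is 60.3% to 65.3% of the leaf-removed bars at 1 h.

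Among the other 9 cytokinin oxidase genes, 4 passed the filter on low counts, and with all libraries none of these 4 was called higher in leaf-removed buds at any time by edgeR. A CKX6-annotated gene, Sobic.001G215600, fell at 1 h from 20.9, 11.3 and 17.9 CPM in intact to 3.69, 6.32 and 2.80 CPM in leaf-removed buds. Its log2 fold change was -1.98 ± 0.34 (edgeR adjusted p = 0.00019). The other CKX6-annotated gene, Sobic.006G151500, fell from 5.51, 3.61 and 4.06 to 1.49, 1.11 and 1.11 CPM, a log2 fold change of -1.82 ± 0.41 (edgeR adjusted p = 0.0016). At 3 h neither was called, with log2 fold changes of 0.38 ± 0.32 and 0.16 ± 0.38 (edgeR adjusted p = 0.39 and 0.78). Without the 5 libraries that deviate alike the first of them was called higher at 3 h (0.56 log2, edgeR adjusted p = 0.021). The change of effect from 1 to 3 h passed its own test in both genes, as it did in 26.6% of all genes. In both treatments Sobic.001G215600 had its highest levels at 3 h, 29.9, 48.0 and 43.6 CPM in intact and 38.5, 58.3 and 61.5 CPM in leaf-removed buds. In intact buds alone it changed across the 3 times (F test, edgeR adjusted p = 0.023) and was higher at 3 h than at 1 h by 1.28 ± 0.32 log2 (edgeR adjusted p = 0.027).

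The CKX7-annotated gene Sobic.007G151400, whose Arabidopsis counterpart is the cytosolic member of the family, had log2 fold changes of -0.96 ± 0.56, -0.71 ± 0.55 and -1.53 ± 0.56 at 1, 3 and 6 h. It passed only at 6 h (edgeR adjusted p = 0.17, 0.35 and 0.046), and at 6 h it missed the threshold with any 1 of 14 libraries left out (edgeR adjusted p from 0.018 to 0.21 over all 18). Its levels at 6 h were 16.8, 27.0 and 9.35 CPM in intact and 7.45, 8.21 and 2.58 CPM in leaf-removed buds. It also passed at 1 h without intact 1 h replicate c (-1.41 log2, edgeR adjusted p = 0.029) and without the 5 libraries that deviate alike (-1.20). With the intron share as a covariate it passed at 1 h at -1.81 (edgeR adjusted p = 1.1e-05) and at 3 h at -1.30 (edgeR adjusted p = 0.00018). The second CKX1-annotated gene, Sobic.009G118700, was not called at any time (-0.87 ± 0.50, -1.25 ± 0.49 and -0.07 ± 0.48 log2, edgeR adjusted p = 0.16, 0.058 and 0.93). It was called lower at 3 h with DESeq2 (adjusted p = 0.044) and without intact 3 h replicate b or leaf-removed 6 h replicate d (edgeR adjusted p = 0.040 and 0.048), and at 1 h without the 5 libraries (-1.49 log2). It had 0.338 to 3.77 CPM in all 18 libraries, far below CKX1 in intact buds.

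The 5 untested genes were at or near the floor. The CKX5-annotated gene Sobic.003G029900 had 52 reads over all 18 libraries, the CKX4-annotated gene 11 and the CKX2-annotated gene 2. The third CKX5-annotated gene and the CKX3-annotated gene had 0 reads in all 18 libraries together. The large CKX5 values in leaf-removed buds thus came from 1 of the 3 genes of that name.

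**Figure D3:**
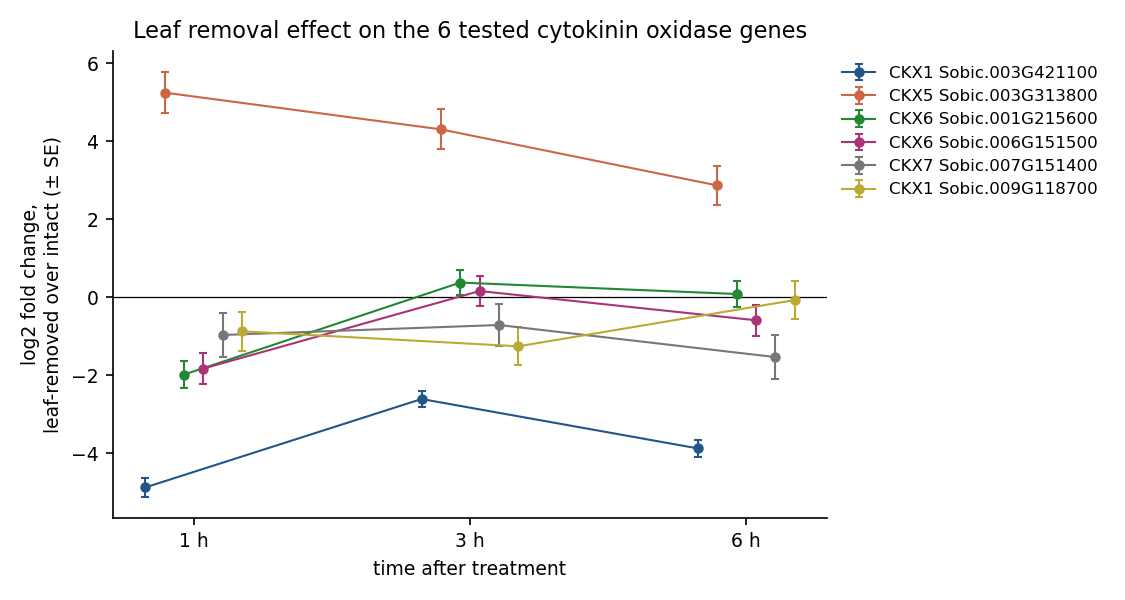
Leaf-removed over intact log2 fold change, with standard errors, at 1, 3 and 6 h for the 6 cytokinin oxidase genes that passed the filter. CKX5 lies above 0 at every time (5.25, 4.31 and 2.87), CKX1 lies below all other genes (-4.87, -2.60 and -3.87), and the CKX6-annotated genes are below 0 at 1 h and near 0 at 3 h.

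Intron reads, which come largely from RNA that is not yet spliced, followed the same directions. CKX1 had 60, 100 and 65 intron reads in intact libraries at 1 h and 2, 1 and 0 in leaf-removed libraries. At 3 h it had 34, 26 and 22 against 18, 12 and 2, and at 6 h 36, 19 and 16 against 2, 3 and 1. CKX5 had 5, 8 and 4 intron reads in intact libraries at 1 h and 103, 75 and 103 in leaf-removed ones. At 3 h the CKX5 reads were 2, 10 and 8 against 92, 87 and 105, and at 6 h 2, 6 and 2 against 32, 40 and 22. Neither gene's groups overlapped in these raw reads at any time. The reads are not scaled to library size, and the share of all genes without overlap in intron reads was not determined. The intron reads come from the libraries that chose the genes, and are a description.

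The genes differed in how much of their signal was intronic. Introns gave 2.88% to 7.36% of the reads of CKX1 over the 6 groups, and 15.0% to 23.5% of those of CKX5. Per 1e6 exon reads, the intron reads of CKX5 were 3.82 ± 0.215 (SD, n = 3) at 1 h and 3.39 ± 0.514 at 3 h in leaf-removed buds. Their range at 3 h was 2.97 to 3.97, while the exon level of the same libraries ran from 7.18 to 22.1 CPM.

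**Figure D4:**
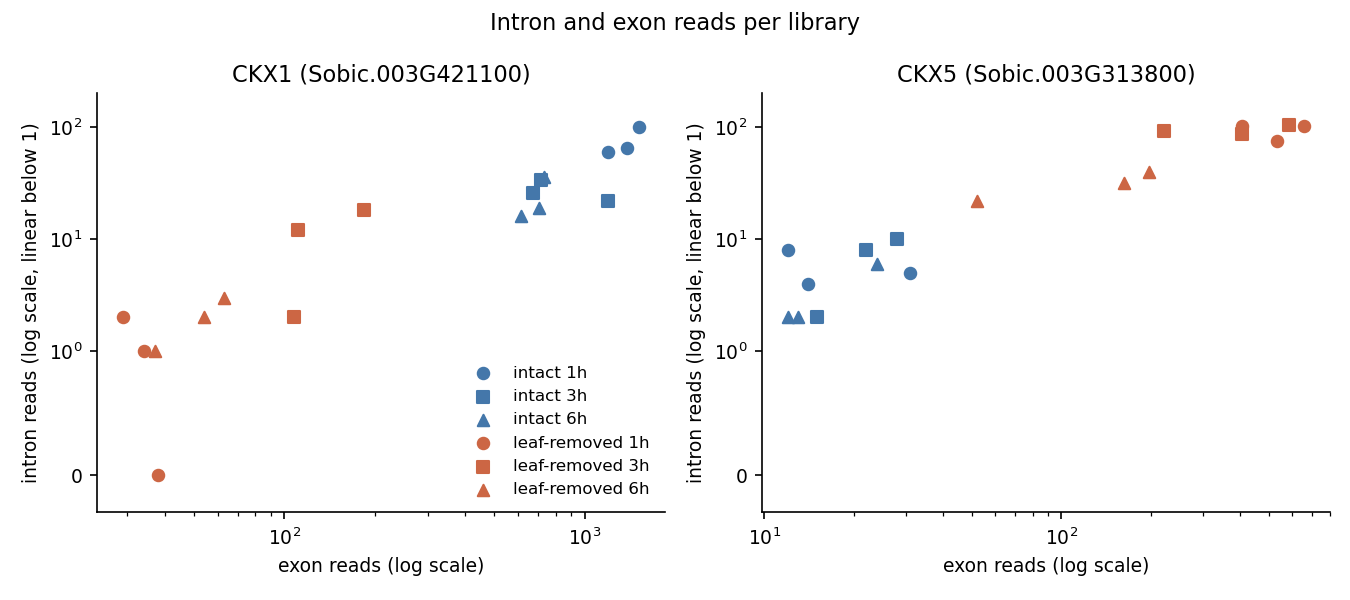
Intron reads against exon reads of CKX1 (left) and CKX5 (right) in each of the 18 libraries, on log axes (vertical axis linear below 1), with treatment by colour and time by shape. Intact libraries are at the upper right for CKX1 and at the lower left for CKX5, where they have 12 to 31 exon reads.

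The exon level of CKX5 moved with the 5 libraries that deviate alike. It was below its group mean in all 5, by -0.89 to -0.42 log2 units, while the other 13 libraries lay between -0.35 and 0.84. CKX1 was below its group mean in 1 of the 5, with deviations from -0.37 to 0.35. Without the 5 libraries the log2 fold changes were -4.87, -2.81 and -4.05 for CKX1 and 5.18, 4.65 and 2.91 for CKX5. The opposite directions were thus present without these libraries, at values near those with them. With the intron share of each library as a covariate CKX5 stood at 4.48, 3.84 and 2.90, so that its value at 1 h was 1.7 times smaller on the linear scale.

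Levels of tissue markers were set beside these values. The summed CPM of the meristem list at 1 h was 218 to 467 in intact and 164 to 265 in leaf-removed buds, and 7 of its 19 tested genes fell and 1 rose, or 42.1% called against 48.9% of all genes. Over all genes 34.0% were called at 3 h and 34.0% at 6 h. At 3 h the sums were 315 to 340 against 277 to 475 and none of the 19 was called. At 6 h they were 256 to 432 against 166 to 326, with 2 genes lower. The median log2 fold changes of this list were -0.74, 0.03 and -0.48 at 1, 3 and 6 h. For the vascular list the sums were 99.4 to 119 against 107 to 200 at 1 h, 97.4 to 108 against 103 to 141 at 3 h and 96.5 to 146 against 77.1 to 118 at 6 h. Of its 14 tested genes 5 rose and 1 fell at 1 h (42.9% called), 3 rose at 3 h, and 1 rose and 1 fell at 6 h. The leaf list summed to 600.3 to 1526 against 1035 to 1524 at 1 h, 1777 to 3298 against 1244 to 2219 at 3 h and 1645 to 2529 against 1177 to 2374 at 6 h. Of its 6 tested genes 1 rose at 1 h, and 1 rose and 1 fell at 3 h and at 6 h, with medians of 0.02, -0.69 and -0.64. The part of tissue composition in the values of CKX1 and CKX5 was not tested at any of the 3 times.

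The other cytokinin genes were taken from lists of Arabidopsis loci, and 53 of their 85 genes in the table were tested. At 1 h 12 rose and 19 fell, or 58.5% against 48.9% of all genes. At 3 h 7 rose and 10 fell, and at 6 h 2 rose and 14 fell, shares of 32.1% and 30.2% against a background of 34.0% at both times. Their median log2 fold changes were -0.28, -0.02 and -0.34, beside -0.01, 0.00 and -0.03 over all genes tested. By direction at 6 h, 3943 of the 21852 genes tested rose and 3478 fell, so that calls over all genes were about even, while those of the cytokinin list were mostly lower. This difference was not tested.

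Among synthesis genes, 6 isopentenyltransferases were tested, and 1 rose and 1 fell at 1 h (33.3% called against 48.9% of all genes). At 3 h none was called, and at 6 h 1 rose and 1 fell (33.3%). Of all genes 34.0% were called at each of these times. The IPT5-annotated gene Sobic.001G042901 rose at 1 h from 0.141 ± 0.0446 to 2.34 ± 0.556 CPM (SD, n = 3), a log2 fold change of 4.02 ± 0.63 (edgeR adjusted p = 6.9e-05). At 3 and 6 h it was not called, at 1.77 ± 0.73 and 0.18 ± 0.67 log2. An IPT1-annotated gene, Sobic.003G261700, fell at 1 h, by 3.47 on the log2 scale, from a level of 0.345 CPM. Another IPT1-annotated gene, Sobic.009G223100, was not called at any time. Of 10 genes of the LOG list (lysine decarboxylase titles), which holds the activating enzymes, 4 rose and 1 fell at 1 h, a share of 50.0% called that is near the 48.9% of all genes. Sobic.001G217700 of this list went from 96.8 ± 29.9 to 339 ± 60.7 CPM at 1 h (log2 fold change 1.81 ± 0.24, edgeR adjusted p = 1.4e-05) and was not called at 3 or 6 h.

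Purine permeases include carriers of cytokinin bases in Arabidopsis, and 4 of 7 tested rose and 1 fell at 1 h (71.4% called against 48.9% of all genes). At 3 h 2 rose and 1 fell (42.9%), and at 6 h 1 rose and 1 fell (28.6%), against 34.0% of all genes at both times. A PUP11-annotated gene, Sobic.004G277000, was, like CKX5, higher at all 3 times, with log2 fold changes of 3.18 ± 0.32, 1.84 ± 0.31 and 1.34 ± 0.31 (edgeR adjusted p = 6.9e-07, 0.00025 and 0.0033). Its level at 1 h was 7.04 ± 2.49 CPM in intact and 64.0 ± 6.10 CPM in leaf-removed buds. Another PUP11-annotated gene, Sobic.006G195200, fell at 1 h (-1.49 log2), and Sobic.006G195100, also annotated PUP11, was not called at any time. The PUP4-annotated gene Sobic.009G227201 fell at 3 and 6 h (-3.31 and -2.61 log2). The PUP5-annotated gene Sobic.002G294000 rose at 1 and 3 h (4.34 and 4.43 log2) and was not called at 6 h (1.84). Sobic.002G231900, annotated PUP3, and Sobic.006G107100, annotated PUP10, were called higher at 1 h only (2.25 and 2.24 log2).

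All 3 receptor genes were called at 1 h, against 48.9% of all genes. At 3 h and at 6 h 66.7% of the receptors were called, against 34.0% of all genes. The AHK3-annotated gene Sobic.003G407300 rose at 1 h (0.70 ± 0.13 log2) and fell at 6 h (-0.44 ± 0.13). An AHK4-annotated gene, Sobic.001G113200, fell at each time, by 0.57, 0.62 and 0.63 on the log2 scale. Another AHK4-annotated gene, Sobic.004G245000, fell at 1 and 3 h (-0.59 ± 0.19 and -0.63 ± 0.19) and was not called at 6 h. Of 4 phosphotransfer genes 1 fell at 1 h, the AHP4-annotated Sobic.009G202900 (-1.34 ± 0.22), and 1 at 6 h, the AHP5-annotated Sobic.002G134001 (-0.66 ± 0.13). Of 6 B-type regulators 1 rose and 2 fell at 1 h (50.0% called, near the 48.9% of all genes). At 3 h and at 6 h 4 fell (66.7% called against 34.0% of all genes). An ARR12-annotated gene, Sobic.010G064700, fell from 42.1 ± 6.03 to 9.31 ± 0.831 CPM at 1 h (-2.18 ± 0.17 log2, edgeR adjusted p = 4.7e-08) and was at 0.25 ± 0.16 at 3 h. Another ARR12-annotated gene, Sobic.004G066600, rose at 1 h (0.75 ± 0.12 log2, edgeR adjusted p = 0.00012) and fell at 3 and 6 h (-0.65 and -1.28). Sobic.004G330900, also annotated ARR12, was not called at 1 h and fell at 3 and 6 h (-0.63 and -0.56). Of 6 cytokinin response factors 2 fell at 1 h, none was called at 3 h and 2 fell at 6 h. These shares of 33.3%, 0% and 33.3% compare with 48.9%, 34.0% and 34.0% of all genes.

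A-type response regulators are the usual transcript markers of cytokinin signalling. Of 11 tested, 9 fell and 1 rose at 1 h (90.9% called against 48.9% of all genes), with a median log2 fold change of -2.24. An ARR3-annotated gene, Sobic.004G178000, fell from 31.4 ± 13.2 to 2.17 ± 0.398 CPM at 1 h (-3.86 ± 0.32 log2, edgeR adjusted p = 1.1e-07). It stood at 0.49 ± 0.27 at 3 h and -0.27 ± 0.28 at 6 h, neither of them called. Another ARR3-annotated gene, Sobic.004G356800, was the 1 that rose at 1 h (1.09 ± 0.21 log2, edgeR adjusted p = 0.00050). The ARR6-annotated gene Sobic.006G263300 fell at 1 h (-0.91 ± 0.25) and rose at 3 h (1.24 ± 0.24, edgeR adjusted p = 0.00099). At 3 h 2 of the 11 rose and 1 fell (27.3% called against 34.0% of all genes), with a median of 0.44. At 6 h none was called (by the edgeR test) against 34.0% of all genes, with a median of -0.19. Set beside these medians, the log2 fold changes of CKX1 were -4.87, -2.60 and -3.87. Differences between the effects of separate genes were not tested.

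**Figure D5:**
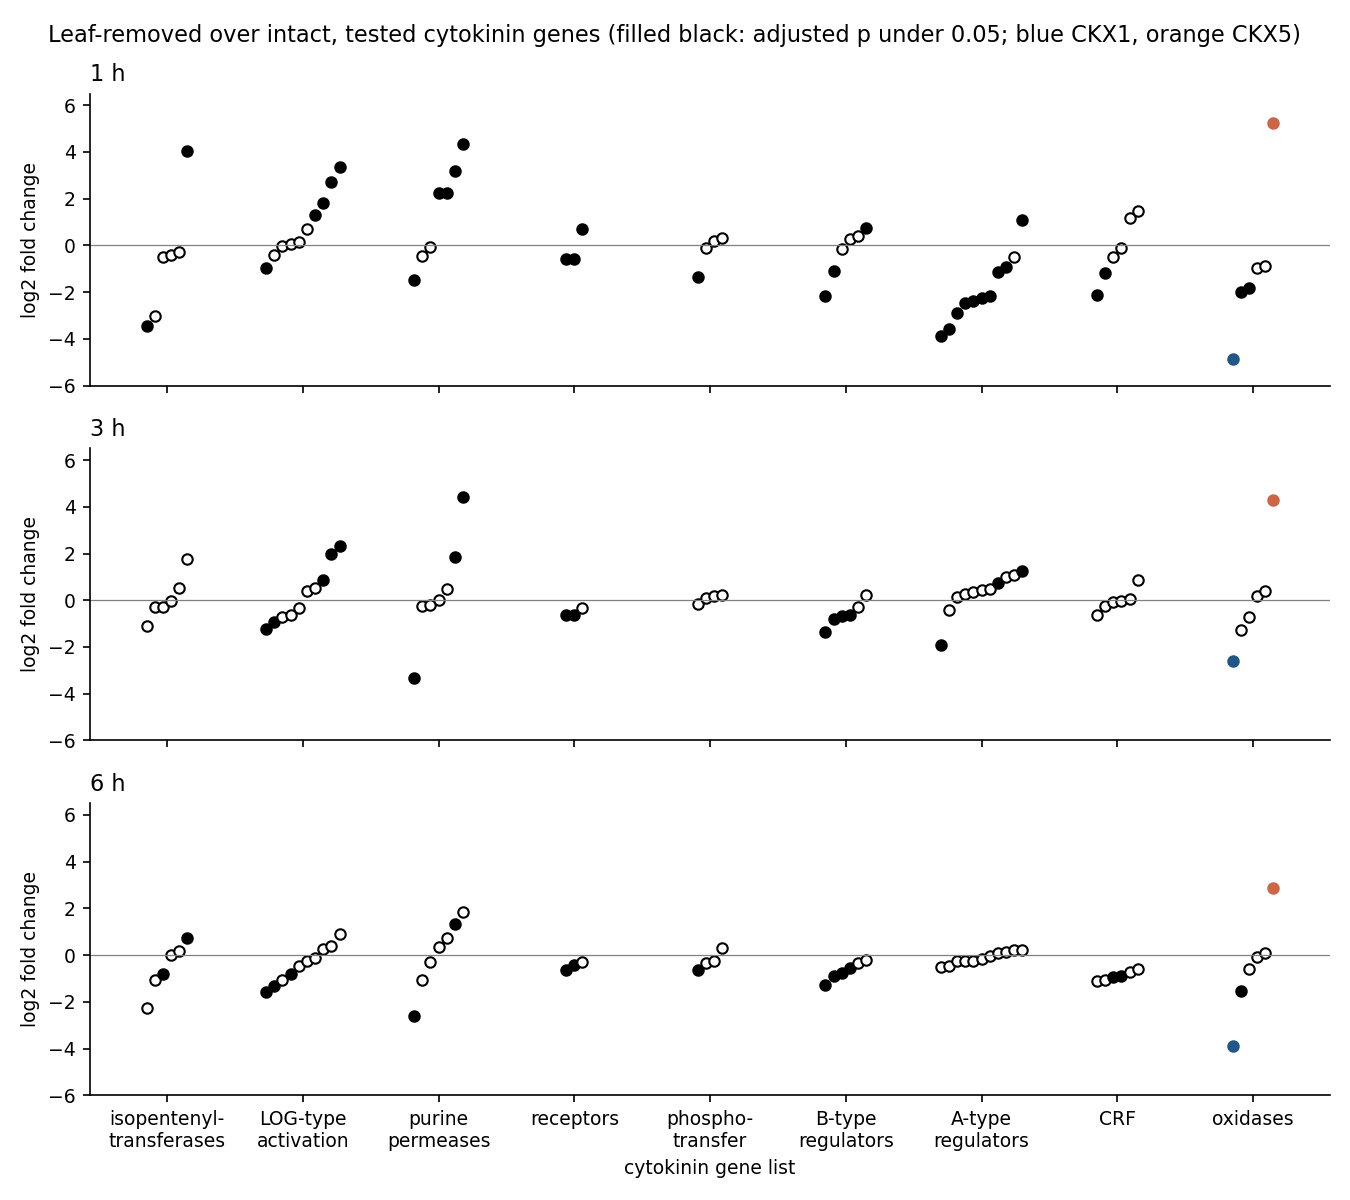
Leaf-removed over intact log2 fold change for each tested cytokinin gene, by list, at 1, 3 and 6 h (top to bottom), with filled black points for genes past the threshold, open points for the others, CKX1 in blue and CKX5 in orange. Most A-type regulators lie below 0 at 1 h and near 0 at 6 h, where CKX1 remains at -3.87 and CKX5 at 2.87.

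The annotated genes whose log2 CPM ran closest to each gene over the 18 libraries were found by the root mean square (RMS) difference after centring each gene, over 17598 genes. For CKX5 the nearest was a gene titled FAD-binding berberine family, Sobic.010G162700 (RMS 0.44), followed by RIN4 Sobic.007G196600 (0.46), SERAT1;1 Sobic.003G279500 (0.48), Sobic.005G036000 of the Ole e 1 family (0.50) and GSTF13 Sobic.004G171400 (0.51). The SERAT1;1-annotated gene, a serine acetyltransferase, had log2 fold changes of 4.80 ± 0.40, 3.77 ± 0.39 and 2.49 ± 0.38 at 1, 3 and 6 h. For CKX1 the nearest was a ubiquitin carboxyl-terminal hydrolase-related gene, Sobic.005G172700 (0.81), with log2 fold changes of -3.68 ± 0.50, -1.95 ± 0.44 and -2.38 ± 0.46. IDD2 Sobic.004G162700 (0.92), an S-locus lectin kinase gene, Sobic.010G175100 (0.94), a CC-NBS-LRR gene, Sobic.005G110514 (0.94), and a haloacid dehalogenase gene, Sobic.002G381600 (0.95), followed. For the typical gene compared, the RMS difference was 2.23 from CKX5 and 2.01 from CKX1. The neighbours of CKX1 were thus farther from it than those of CKX5 from CKX5, and none of the 10 is a cytokinin oxidase. With the 6 group means in place of the libraries, 2 of the 5 names were kept for each gene.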

How the data were processed

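Total RNA of 18 pools of sorghum buds was sequenced with TruSeq libraries on an Illumina sequencer, per the labels. The deposited table holds, per the file headers, counts of total exon, unique exon and intron reads per gene and library, the authors' RPKM values, the exon length, and the authors' signed fold change per time, which carries a minus sign where leaf-removed buds were lower and enters here as a signed score of the deposited table. Neither the aligner nor the genome build is named in the sources used here. The table's Arabidopsis annotation was the only source of names, since 0 identifiers matched the RefSeq table, and positions and sequences were not used here.

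Total exon counts were fitted with edgeR 4.0.16 (R 4.3.3; quasi-likelihood F test, TMM, default expression filter, one fit of 6 groups, 12 residual degrees of freedom), which kept 21852 genes at a biological coefficient of variation of 24.9%. Adjusted p is Benjamini-Hochberg over all tested genes, called under 0.05. CPM is per 1e6 TMM-scaled exon reads, with a prior count of 2 for log2 CPM. RPKM, which is not TMM-scaled, was used to set genes side by side and for the sums over the cytokinin oxidase genes. Simulated data with known changes were used to check the scripts. Alternatives were library totals, the size factors and the test of DESeq2 1.42.0, no filter, at least 1 CPM in 9 libraries, unique reads, a replicate block, the intron share as covariate, leaving out 5 libraries, only the groups compared, and each library left out in turn. Correlations between same-letter libraries, over deviations from group means, were -0.405 to 0.528 in 7 pairs, so letters were not taken as pairs.

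The members, lists, tests and alternatives were chosen with earlier results of these data known. Named genes were the members, all genes titled cytokinin oxidase, up to 3 genes per cytokinin list and time by smallest p, of which some are printed, and the 5 nearest genes in pattern. Exon reads per library were 21.4 to 45.8 M (1e6 reads), of which 97.0% to 97.6% were unique. Figures used matplotlib 3.10.9 under Python 3.11.15.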

Additional observations from a re-analysis of the deposited data

Results flagged for a closer look

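The leaf removal effect on both CKX6-annotated genes differed between times. For Sobic.001G215600 the log2 fold change was higher at 3 h than at 1 h by 2.36 ± 0.47 (edgeR interaction test, adjusted p = 0.0014), from -1.98 to 0.38. For Sobic.006G151500 the difference was 1.99 ± 0.56 (edgeR adjusted p = 0.015), from -1.82 to 0.16. This interaction test was added after the values were seen, and 26.6% of all genes tested passed it. It passed for both genes under every alternative run, single libraries left out included. For the same difference CKX1, described without a test, had 2.27 ± 0.29 and CKX5 -0.94 ± 0.68.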

How the results depend on the processing

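The log2 fold changes of CKX1 and CKX5 kept their direction at all 3 times in every alternative run. CKX1 ranged from -5.11 to -4.83 at 1 h, -2.81 to -2.44 at 3 h and -4.06 to -3.68 at 6 h, and CKX5 from 4.48 to 5.78, 3.84 to 4.65 and 2.61 to 3.28. The value of CKX5 at 1 h moved by more than its SE to 4.48 with the intron covariate. Library totals in place of TMM moved the median of all genes to -0.25, -0.12 and -0.21 log2. In intact buds the F test of CKX1 passed with DESeq2 (adjusted p = 0.021) and with the intron covariate (adjusted p = 0.040, edgeR), and ranged from 0.026 to 0.18 with single libraries left out. The CKX1 contrast of 6 h with 1 h was -0.50 without the 5 libraries and -0.88 to -0.52 with single libraries left out. For CKX5 that contrast was -0.73 with the intron covariate, -0.00059 without the 5 libraries and -0.37 to 0.64 with single libraries left out, and its contrast of 6 h with 3 h was -0.71 to 0.0047, the highest without intact 3 h replicate b. Of the other oxidase genes, 4 were called at 1 h without the 5 libraries. At 3 h 1 was called with library totals, DESeq2 or without the 5 libraries, 2 with the intron covariate, and 0 to 1 with single libraries left out, and at 6 h 0 under the replicate block and 0 to 1 with single libraries left out. At 6 h Sobic.001G215600 stood at -0.11 with library totals and -0.072 to 0.33 with single libraries left out, and Sobic.009G118700 at 0.36 without the 5 libraries and -0.37 to 0.22 with single libraries left out. At 3 h Sobic.006G151500 stood at -0.14 with the intron covariate and -0.055 to 0.51 with single libraries left out. Of the cytokinin genes, 14 were higher at 3 h without the 5 libraries and 17 lower at 3 h with the intron covariate. At 6 h 1 was higher with library totals, no filter, the replicate block or without the 5 libraries, 5 with the intron covariate and 1 to 3 with single libraries left out, and 22 were lower with the intron covariate and 8 to 14 with single libraries left out, the lowest without leaf-removed 6 h replicate d and 9 without its replicate b or intact 6 h replicate c or d. Over all genes the F test in intact buds called 2125, against 3542 with DESeq2, 1198 with the replicate block, 4651 with the intron covariate, 4366 without the 5 libraries, 1271 with only the groups compared, and 1235 (without intact 1 h replicate c) to 2703 with single libraries left out. The replicate block joins libraries by letter only. The causes were not tested. The lowest read numbers were those of CKX5 in intact buds, at 12 to 31 per library, and of CKX1 in leaf-removed buds at 1 h, at 29 to 38, and how far depth limits these values was not tested.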
